A study of Mus musculus with 12 samples.

Results

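Loss of the upstream regulatory element of Spi1 was examined over 12 polyA RNA-seq libraries of mouse bone marrow sorted as Flk2- Lin- Sca-1+ Kit+, a fraction that holds the blood stem cells and other early progenitors. The 6 libraries without the element came from the genotypes Mdmx-Tg/Pu.1-URE-/- and Pu.1-URE-/-, the 6 with it from Mdmx-Tg and Wild-type, 3 libraries for each genotype. The described genes are those whose 6 values on 1 side all lay above, or all lay below, the 6 values on the other side. Of 15012 genes tested, 1018 (6.78%) met this rule, 734 of them higher without the element (4.89%) and 284 lower (1.89%). Because the rule reads the compared values themselves, these counts are a description and carry no test. The tests come from a fit to all 15012 genes, in which loss of the element and the presence of the transgene were separate terms, so that libraries with and without the transgene stood on both sides.

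Mdmx-Tg stands for a transgene of MDMX, the product of Mdm4 and an inhibitor of p53, and URE for the upstream regulatory element of the PU.1 gene. No other allele or treatment is named for any group. The promoter of the transgene, the strain, the age and the sex of the animals are not given in the sources used here. Every library has a number of its own in the labels, but what the number marks is not stated, so the p-values measure the spread between these libraries, which may in part be technical. In bulk RNA, fewer cells of a type and less RNA per cell cannot be told apart.

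PU.1, encoded by Spi1, is an ETS-family transcription factor that stem cells hold at a low level and that rises as they turn to the myeloid lineage. Its upstream element is an enhancer that sets the amount of PU.1 made. High PU.1 is known to favour monocytes and macrophages, whereas the granulocyte path runs through C/EBP alpha, GFI1 and later C/EBP epsilon. Along that path neutrophil precursors fill their granules in a set order, with azurophil granules (elastase, myeloperoxidase) first, then specific granules (lactoferrin, cathelicidin) and then gelatinase granules.

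Each library held 47231505 to 55030224 reads summed to genes, and 12824 to 14117 genes reached 10 reads. Values are counts per 1000000 reads (CPM) after TMM scaling, and a side is described by the lowest, the median and the highest of its 6 libraries, in that order. Changes are log2 of the level without the element over that with it, from edgeR, with the standard error, and a gene was called at an adjusted p below 0.05. Libraries of 1 genotype correlated at 0.938 to 0.974 (log2 of CPM + 1), and the first principal component, with 29.1% of the variance, placed the 6 libraries without the element (68.1 to 119) apart from the 6 with it (-116 to -65.3). The biological coefficient of variation was 0.818. Immunoglobulin genes took 0.131% to 4.13% of reads without the element and 0.427% to 31.2% with it. Summed reads of 4 Y-linked genes stood at 205 and 211 CPM in Mdmx-Tg/Pu.1-URE-/- 1 and 3 and at 222 CPM in Wild-type 2, against 2.16 to 5.26 CPM in the other libraries. A library with high Y-linked reads thus lay on each side, but none in Pu.1-URE-/- or Mdmx-Tg. Where these libraries are left out below, Mdmx-Tg/Pu.1-URE-/- keeps replicate 2 alone.

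Spi1 itself did not separate the sides. Its level was 8.73, 8.73 and 23.9 CPM in Pu.1-URE-/- 1 to 3 and 3.48, 1.84 and 0.0198 CPM in Mdmx-Tg/Pu.1-URE-/- 1 to 3, against 21.6, 13.5 and 3.69 CPM in Mdmx-Tg 1 to 3 and 38.0, 5.33 and 8.08 CPM in Wild-type 1 to 3. The log2 change was -1.58 ± 0.97 (edgeR adjusted p = 0.354). A short non-coding transcript, Spi1-202 (GRCm38 chromosome 2, 91082408 to 91090310), had 0 reads in all 6 libraries without the element and 53 to 321 reads in the 6 with it, an observation made after its values were seen. Spi1-204, a coding transcript that starts close by at 91082390, did not show this. It had 9.68, 0 and 49.3 reads in Pu.1-URE-/- 1 to 3 and 15.4, 0 and 0 in Mdmx-Tg/Pu.1-URE-/- 1 to 3. With the element it had 0 to 98.6 reads. Mdm4, the transgene's gene, was not called for loss of the element (log2 change -0.12 ± 0.34, edgeR adjusted p = 0.884). Its sum includes Mdm4-201, with 4477 to 22274 reads in libraries with the transgene and 0 to 145 in those without it. Another coding transcript in the sum, Mdm4-210, had 2870 to 4087 reads without the element and 1799 to 3614 with it. These transcript values overlap between the sides and were not tested.

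The genes of the sort gate gave a mixed picture. Kit, the stem cell factor receptor, had 165, 221 and 261 CPM without the element and 270.2, 294 and 328 CPM with it, so that its values did not overlap (log2 change -0.48 ± 0.14, edgeR adjusted p = 0.0416). That call did not hold without Wild-type 2 (adjusted p = 0.0931), Wild-type 3 (0.0517), Pu.1-URE-/- 1 (0.0866), Pu.1-URE-/- 3 (0.0612) or Mdmx-Tg/Pu.1-URE-/- 2 (0.0646). Ly6a, which encodes Sca-1, had 41.9, 51.0 and 66.7 CPM without the element and 15.01, 54.3 and 97.2 CPM with it (adjusted p = 0.928). Flt3, which encodes the Flk2 receptor that the gate selects against, was 3.00-fold higher without the element (10.8, 44.6 and 53.7 CPM, against 5.82, 12.96 and 22.2 CPM with it, adjusted p = 0.0253). It lost its call without Wild-type 1 (adjusted p = 0.0533), Wild-type 2 (0.061), Wild-type 3 (0.0518), Pu.1-URE-/- 2 (0.0526), Pu.1-URE-/- 3 (0.0777) or Mdmx-Tg/Pu.1-URE-/- 1 (0.0648). The lineage gene Cd3e had 22 reads in all without the element and 0 with it.

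The largest differences were those of the granulocyte programme, and they went up. In the fit 1178 genes rose (7.85% of those tested) and 569 fell (3.79%), together 1747 (11.6%). The counts of each gene list below are to be read against these shares. Of the 734 genes with all 6 values higher, 656 were called, 694 were protein-coding, and their median log2 change was 2.2, with quartiles of 1.17 and 4.29. Of the 284 with all 6 values lower, 226 were called, 267 were protein-coding, and the median was -1.72, with quartiles of -2.97 and -0.94. The median of all genes tested was -0.0008. The gap between the nearest libraries of the sides exceeded 1 log2 unit for 244 of the higher and 63 of the lower genes, and 3 log2 units for 84 and 17. At 59 of the higher genes every library without the element lay above 1 CPM and every library with it below, and 15 of the lower genes showed the reverse.

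The transcription factors of granulocytes were split between those that moved and those that did not. Of 24 listed, 7 rose and 0 fell (median log2 change 0.40), 5 had all 6 values higher and 1, the interferon regulatory factor Irf5, all 6 lower. Irf5 had 0.130, 0.826 and 2.13 CPM without the element and 2.28, 5.09 and 20.1 CPM with it and was not called (edgeR adjusted p = 0.0541). Cebpe, the factor of late granulocyte maturation, had 87.9, 330.3 and 997 CPM without the element and 0, 1.54 and 5.87 CPM with it (log2 change 7.73 ± 1.19, edgeR adjusted p = 0.00163). Gfi1, a repressor that holds cells on the granulocyte path, had 29.3, 61.7 and 80.4 CPM without the element and 2.79, 3.84 and 7.57 CPM with it, a 13.9-fold rise (adjusted p = 8.08e-05). Cebpa, which starts that path, rose 7.58-fold (12.4, 26.9 and 41.1 CPM, against 1.19, 4.24 and 9.05 CPM; adjusted p = 0.00938). In none of the 3 genes did a library of 1 side reach the other. The helix-loop-helix inhibitors Id1 and Id2 rose as well, Id2 3.84-fold without overlap (adjusted p = 0.00507) and Id1 to 2.12, 10.9 and 30.9 CPM, against 0, 0 and 2.36 CPM with the element (adjusted p = 0.0121). Irf8, which directs monocyte and dendritic cell fate, stood at 0, 2.00 and 5.55 CPM without the element and 2.95, 6.12 and 17.2 CPM with it and was not called (adjusted p = 0.276). Without the 3 libraries with high Y-linked reads 3 of the 24 factors rose, and with the level of the immunoglobulin joining chain Jchain as a covariate again 3.

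Azurophil granule genes, the earliest of the granule sets, were present on both sides and higher without the element. Of 22 listed 20 passed the filter on low counts, and of these 14 rose, 0 fell and 13 had all 6 values higher (median log2 change 2.66). Elane (GRCm38 chromosome 10, 79886247 to 79888215), the gene of neutrophil elastase, had 4287, 10815 and 22494 CPM without the element and 121, 189 and 294 CPM with it (log2 change 5.83 ± 0.40, edgeR adjusted p = 6.92e-06). The lowest library without the element stood well above the highest with it. The serine protease cathepsin G, encoded by Ctsg, had 1705, 3721 and 5032 CPM without the element and 87.8, 139.9 and 239 CPM with it, a 24.3-fold rise (adjusted p = 8.82e-06). Proteinase 3, the product of Prtn3 next to Elane, rose 11.1-fold (adjusted p = 0.000256). Mpo, the myeloperoxidase gene, had 3168, 11869 and 21605 CPM without the element and 509, 825 and 1804 CPM with it, a 12.7-fold rise (adjusted p = 0.000122). Of the named genes in this set it had the narrowest gap, with its lowest value in Mdmx-Tg/Pu.1-URE-/- 2 and its highest value with the element in Wild-type 3. Cst7, the inhibitor cystatin F, rose 18.1-fold (137, 241 and 310.0 CPM, against 7.63, 11.2 and 22.2 CPM; adjusted p = 1.16e-05), and Ms4a3, a gene of granulocyte-monocyte progenitors, rose as well (log2 change 3.91 ± 0.38, adjusted p = 8.74e-05). Summed over the tested members, the set stood at 15594 to 65838 CPM without the element and 3319 to 5161 CPM with it.

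Most tested genes of specific and gelatinase granules and of the secreted proteins of later neutrophil precursors were higher without the element. The gelatinase granule enzymes Mmp8 and Mmp9 were below the filter. Of 44 listed genes 35 passed the filter, 27 rose, 0 fell and 26 had all 6 values higher, and the median log2 change was 8.28. Camp, which encodes the antimicrobial cathelicidin, had 7868, 8703 and 30216 CPM without the element and 0.0383, 0.421 and 1.25 CPM with it (log2 change 14.66 ± 0.75, edgeR adjusted p = 9.93e-07). Ngp, the neutrophilic granule protein, had 11662, 14539 and 49208 CPM without the element and 0.0192, 1.49 and 2.80 CPM with it (log2 change 13.88 ± 0.98). Summed over the tested members the set took 27099 to 103013 CPM without the element, against 490 to 1059 CPM with it. Camp and Ngp held a large part of the sum without the element. S100a8 and S100a9 form the calcium-binding protein calprotectin of the neutrophil cytoplasm. S100a8 had 2398, 3564 and 10447 CPM without the element and 3.08, 6.29 and 10.4 CPM with it (log2 change 9.59 ± 0.57), and S100a9 had 391, 555 and 2034 CPM without it and 0, 3.00 and 6.55 CPM with it (log2 change 8.28 ± 1.30). In each of these genes the highest library was Pu.1-URE-/- 1, and no library with the element came near the lowest one without it.

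Several members had hardly a read with the element. The chitinase gene Chit1 had 115, 394 and 982 CPM without the element and 4 reads over the 6 libraries with it. Orm1, the acute-phase protein orosomucoid, had 55.6, 95.7 and 189 CPM without the element, again against 4 reads in all with it. Retnlg, a resistin-like secreted protein, had 21.4, 27.2 and 79.0 CPM and 1 read. These genes were thus read in every library without the element. Ly6g, the surface marker of neutrophils, had 3.19, 8.61 and 45.8 CPM without the element and no read with it, at least 1597.5-fold higher against a floor of 3 reads over the 6 libraries. The neutrophil surface protein gene Cd177 had 239, 316 and 1351 CPM without the element and 17 reads in all with it, nearly all of them in Mdmx-Tg 3 (0.287 CPM). Lcn2, the siderophore-binding lipocalin, had 36.3, 65.6 and 177 CPM against 13 reads in all, and Ltf, the iron-binding lactoferrin, 3.50, 6.03 and 30.0 CPM against 9 reads, all in Wild-type 1.

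Other leading rises were genes of secreted and immune proteins. Lrg1, a leucine-rich glycoprotein, stood at 311, 513 and 1526 CPM without the element and 0, 0.0286 and 1.15 CPM with it (log2 change 11.90 ± 1.08, edgeR adjusted p = 4.99e-05). Hp, the haemoglobin-binding haptoglobin, rose 109-fold (395, 656 and 1617 CPM, against 4.20, 6.93 and 10.4 CPM; adjusted p = 2.45e-06). Complement was represented by C3 (197, 377 and 988 CPM, against 0, 0.00981 and 3.77 CPM; log2 change 8.62 ± 1.61) and by the lectin gene Fcnb (149.5, 319 and 766 CPM, against 0, 0 and 2.12 CPM; log2 change 9.33 ± 1.53). Each of these genes lay without overlap. The same held for Mogat2, a monoacylglycerol acyltransferase (log2 change 8.56 ± 1.51), the receptor gene Trem3 (6.996 ± 0.86) and the extracellular chaperone Clu (6.65 ± 0.86).

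Several genes of mature neutrophils had too few reads for a test, while Cxcr2 was tested and did not rise. Of the 9 members of the granule list below the filter 7 had more reads without the element and 2, Mmp8 and Mmp9, fewer. Cxcr2, the chemokine receptor of circulating neutrophils, had 1.97, 3.37 and 4.72 CPM without the element and 3.999, 5.11 and 13.2 CPM with it and was not called (log2 change -0.82 ± 0.45, edgeR adjusted p = 0.29). Of the gelatinase granule enzymes, Mmp9 had 0 reads without the element and 1 with it, and Mmp8 had 0 and 6. Mmp25 had 22 reads without the element and 1 with it. The formyl peptide receptors Fpr1 and Fpr2 had 38 and 74 reads without the element, each in a single library, and 0 with it, and the chitinase-like Chil3 had 24 and 4. The stefins Stfa1, Stfa2 and Stfa3, inhibitors of cysteine proteases, had 290, 15 and 44 reads without the element and 0 with it, 257 of the 290 in 1 library.

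**Figure D1:**
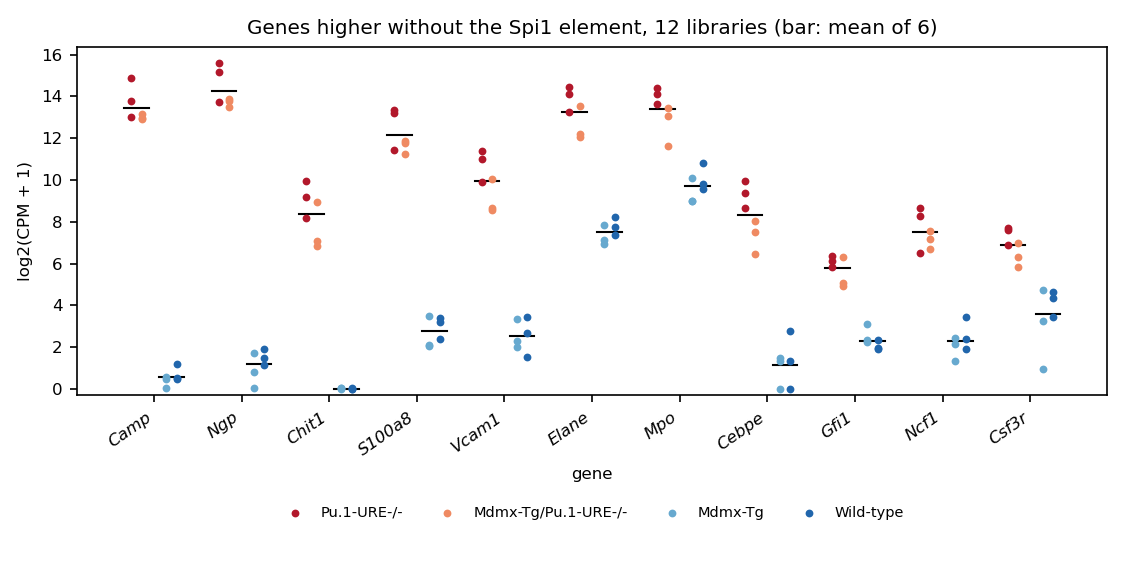
Levels of 11 genes higher without the Spi1 element, as log2(CPM + 1) on the vertical axis for each of the 12 libraries. Points are libraries coloured by genotype, with the 6 libraries without the element left of the 6 with it at each gene, and the bar is the mean of 6. The groups of 6 stand apart at every gene. Between their nearest libraries the gap is widest at Camp and Ngp and narrowest at Mpo.

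The start regions of a few of these genes and of a pair of genes that fell are shown. Each holds letters that match a known form of the PU.1 or C/EBP site, so they do not stand for their groups. Binding was not measured. The letters searched were GAGGAAGT and AGAGGAAG, forms of the PU.1 site with its GGAA core, and TTGCNNAA and TTGCGCAA, forms of the C/EBP site. AAATCA stands for the GFI1 site, TGTGGT for the RUNX site and CACCC for the KLF site. All were searched on both strands in the 250 bases before the RefSeq start of 10618 of the 15012 genes (GRCm38.p6). GAGGAAGT and AGAGGAAG overlap in part, TTGCGCAA is a case of TTGCNNAA, and short motifs such as CACCC occur in most promoters. In the sequences below, 5′ to 3′ on the plus strand, capitals mark each match to GAGGAAGT, AGAGGAAG or TTGCNNAA on either strand.
Elane (chr10:79886062-79886311): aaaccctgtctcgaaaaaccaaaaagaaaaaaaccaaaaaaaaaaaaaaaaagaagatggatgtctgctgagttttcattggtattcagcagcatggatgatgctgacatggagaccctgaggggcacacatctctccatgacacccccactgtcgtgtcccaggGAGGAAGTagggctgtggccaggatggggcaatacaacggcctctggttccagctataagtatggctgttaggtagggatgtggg
Prtn3 (chr10:79879417-79879666): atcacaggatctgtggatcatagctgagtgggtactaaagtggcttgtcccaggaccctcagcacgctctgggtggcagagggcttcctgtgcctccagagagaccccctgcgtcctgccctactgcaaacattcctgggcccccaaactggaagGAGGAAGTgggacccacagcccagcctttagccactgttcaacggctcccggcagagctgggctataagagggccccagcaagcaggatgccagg
Ngp (chr9:110419558-110419807): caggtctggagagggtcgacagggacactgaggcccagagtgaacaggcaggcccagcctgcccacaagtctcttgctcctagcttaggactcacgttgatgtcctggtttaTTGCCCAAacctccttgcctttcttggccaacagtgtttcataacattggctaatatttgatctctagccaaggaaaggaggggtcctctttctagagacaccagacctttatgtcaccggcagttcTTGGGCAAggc
Ltf (chr9:111019042-111019291): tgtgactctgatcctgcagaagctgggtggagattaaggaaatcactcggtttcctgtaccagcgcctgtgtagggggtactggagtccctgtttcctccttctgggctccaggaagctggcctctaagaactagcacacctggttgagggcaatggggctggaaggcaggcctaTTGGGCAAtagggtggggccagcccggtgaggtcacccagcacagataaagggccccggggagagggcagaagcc
Tbxas1 (chr6:38918736-38918985): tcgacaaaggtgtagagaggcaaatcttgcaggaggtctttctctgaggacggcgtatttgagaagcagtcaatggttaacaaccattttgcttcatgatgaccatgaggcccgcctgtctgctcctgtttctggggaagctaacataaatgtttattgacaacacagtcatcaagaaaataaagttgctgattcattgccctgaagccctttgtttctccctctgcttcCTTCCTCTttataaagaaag
Rnase6 (chr14:51128814-51129063): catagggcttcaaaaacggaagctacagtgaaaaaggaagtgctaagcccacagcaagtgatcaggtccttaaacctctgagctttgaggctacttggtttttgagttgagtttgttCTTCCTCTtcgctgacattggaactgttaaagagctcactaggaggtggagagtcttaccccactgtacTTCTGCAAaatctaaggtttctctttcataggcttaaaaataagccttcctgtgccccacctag

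TTGCNNAA was found in 11.8% of the 250-base windows of genes with all 6 values higher without the element (65 of 552) and 11.7% of those with all 6 lower (25 of 214), against 7.76% of all 10618 windows. GAGGAAGT was found in 3.26% of the windows of the higher genes, 2.34% of those of the lower genes and 2.53% of all windows. AGAGGAAG stood at 4.71%, 3.74% and 3.72% in the same order, and TTGCGCAA, which 25 genes in all hold, at 0.543%, 0.467% and 0.235%. The shares for AAATCA were 6.52%, 8.88% and 8.07%, and for CACCC 61.1%, 58.4% and 56.5%. TGTGGT was found in 72 of the 552 windows of the higher genes, 23 of the 214 of the lower genes and 1172 of all 10618. These shares are a description of the letters in the windows and were not tested. In the printed windows GAGGAAGT begins 85 bases before the start of Elane and 95 before that of Prtn3. TTGCNNAA begins 138 bases before the start of Ngp on the plus strand. Its matches on the minus strand begin 11 bases before the start of Ngp, 75 before that of Ltf and 64 before that of Rnase6. AGAGGAAG, on the minus strand, begins 20 bases before the start of Tbxas1 and 133 before that of Rnase6. All these distances are to the RefSeq start. At Tbxas1 the whole window lies inside the GENCODE gene whose reads were counted, well past that gene's own start. The Elane window reaches a short way into its GENCODE gene.

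The subunits of the NADPH oxidase, which makes superoxide in phagocytes, rose in part. Of 9 measured 6 rose, 0 fell and 5 had all 6 values higher (median log2 change 1.5). The cytosolic subunit Ncf1 had 91.2, 167 and 409 CPM without the element and 1.56, 3.86 and 9.82 CPM with it, a 47.3-fold rise (edgeR adjusted p = 3.51e-05), and Ncf4 rose 13.1-fold (adjusted p = 0.000249). Hvcn1, the proton channel that serves the oxidase, had 42.2, 141 and 376 CPM without the element and 0, 1.31 and 6.83 CPM with it (log2 change 6.21 ± 1.26). The membrane subunit Cybb, by contrast, overlapped between the sides, with 15.3, 41.5 and 121 CPM without the element and 5.48, 31.5 and 92.6 CPM with it (log2 change 0.33 ± 0.61, adjusted p = 0.807). Without the 3 libraries with high Y-linked reads 3 of the 9 rose.

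Cytokine receptors moved in both directions. Csf3r, the receptor of granulocyte colony-stimulating factor, had 55.5, 119.9 and 210.2 CPM without the element and 0.958, 14.7 and 25.7 CPM with it, an 8.47-fold rise (edgeR adjusted p = 0.00592). Csf1r, the receptor of macrophage colony-stimulating factor, had 16 reads in all without the element and 636 with it (log2 change -6.06 ± 1.72, adjusted p = 0.0406). That call is not firm, since 8.73 CPM stood in Mdmx-Tg 3 alone and the adjusted p was 0.252 without that library, and leaving out any other library but Mdmx-Tg 1 or Mdmx-Tg 2 gave an adjusted p between 0.0564 and 0.0956. Over the 21 myeloid cytokine receptors 4 rose and 2 fell (median log2 change -0.48), among them Ifngr1, a chain of the interferon gamma receptor, which rose 2.19-fold (adjusted p = 0.00385). With the Jchain covariate the receptor counts were 0 and 0, and without the 3 libraries with high Y-linked reads 0 and 1. Without Wild-type 2 or 3 or Pu.1-URE-/- 3 they were 2 and 0, without Pu.1-URE-/- 1 the falls were 0, and without Wild-type 1 or Mdmx-Tg/Pu.1-URE-/- 1 the rises were 2.

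Among adhesion genes the difference was widest at Vcam1, an adhesion molecule best known from endothelium. It had 380.6, 1022 and 2661 CPM without the element and 1.91, 4.60 and 10.03 CPM with it (log2 change 7.61 ± 0.65, edgeR adjusted p = 3.50e-05). The leukocyte integrin chains Itgb2 and Itgal rose 5.70-fold and 5.85-fold without overlap (adjusted p = 0.00172 and 0.00135). Of 20 adhesion and chemotaxis genes 8 rose and 2 fell (median log2 change 0.62). Of 26 Fc and immune receptor genes 9 rose and 2 fell (median 1.53). Clec12a, an inhibitory C-type lectin of myeloid cells, had 135, 229.9 and 511 CPM without the element and 11.9, 21.01 and 24.3 CPM with it, a 13.3-fold rise (adjusted p = 1.51e-05). Clec4e, which senses microbial glycolipids, rose 15.4-fold (adjusted p = 0.000239), and Fcer1g, the signalling chain of Fc receptors, 6.74-fold (adjusted p = 0.000434). Endothelial and stromal markers gave 4 that rose and 2 that fell of 13, with a median log2 change of 0.0, and without Mdmx-Tg/Pu.1-URE-/- 1 the falls numbered 0. Besides Vcam1 they held Pecam1 (5.06-fold, adjusted p = 0.000671) and Pdgfrb (7.16-fold, adjusted p = 0.015) among the rises. The list's summed level was 590.3 to 2960.1 CPM without the element and 138 to 205 CPM with it. Vcam1 alone (380.6 to 2661 CPM) made up most of the level without the element. The defining markers Cdh5, Pdgfra and Cxcl12 did not pass the filter. The part of such cells in the rise of Vcam1 was not tested. Of 22 genes of BTK and immunoreceptor signalling 7 rose and 3 fell (median 0.55), and without the 3 libraries with high Y-linked reads 0 rose and 2 fell. Of 10 dendritic cell and eosinophil markers 2 rose and 1 fell (median -1.08). Among all genes tested the shares were 7.85% and 3.79%.

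Among abundant genes of no listed group, Hmgn2, a nucleosome-binding protein, had 6883, 9402 and 14990.0 CPM without the element and 1524, 2039 and 3612 CPM with it, a 4.42-fold rise (edgeR adjusted p = 0.000357). Tmsb4x, the actin-sequestering thymosin beta 4, rose 6.81-fold (adjusted p = 0.000178) and Arhgdib, a GDP dissociation inhibitor of blood cells, 4.45-fold (adjusted p = 0.000256), both without overlap. Among the abundant falls, Rpl6 and Rps9, subunits of the ribosome, were 1.47-fold and 1.68-fold lower (adjusted p = 0.0185 and 0.0104). Reads of ribosomal protein genes can be shared with their many pseudogene copies, so these values are uncertain.

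Enzymes that turn arachidonic acid into eicosanoids moved apart. Of 13 measured 3 rose and 1 fell (median log2 change 0.01). Alox5, which opens the leukotriene route, had 15.5, 44.9 and 142 CPM without the element and 0.196, 2.93 and 8.09 CPM with it, an 18.1-fold rise (edgeR adjusted p = 0.014). Lta4h, which makes leukotriene B4, a neutrophil attractant, had 789, 1459 and 2873 CPM without the element and 120.5, 186 and 224 CPM with it, a 9.45-fold rise (adjusted p = 3.30e-05). Tbxas1 (GRCm38 chromosome 6, 38875404 to 39084585), which makes thromboxane, had 0.623, 3.25 and 8.96 CPM without the element and 94.5, 99.4 and 203 CPM with it, 31.2-fold lower (adjusted p = 0.000453). Of the libraries with the element 5 lay between 94.5 and 102 CPM, and Mdmx-Tg 1 stood above them. Without Pu.1-URE-/- 3 or Mdmx-Tg/Pu.1-URE-/- 1 the count of rises was 2, since Ltc4s, the leukotriene C4 synthase, missed the threshold (adjusted p = 0.0607 and 0.0502).

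Several of the deepest falls were in genes of macrophages, monocytes and antigen presentation. Tfec, a macrophage transcription factor, had no read in the 6 libraries without the element and 7.77, 12.97 and 48.5 CPM with it, at least 2081.9-fold lower against a floor of 3 reads over the 6 libraries. Cd86, the costimulatory ligand of antigen-presenting cells, had no read without the element and 2.56, 6.58 and 19.2 CPM with it, at least 838.3-fold lower. Cd180, a Toll-like receptor relative of B cells and macrophages, had no read without the element and 0.594, 1.13 and 2.90 CPM with it, at least 160.62-fold lower. Ms4a6c, a membrane protein of monocytes, had 2 reads in all without the element, both in Mdmx-Tg/Pu.1-URE-/- 3, and 6.42, 15.6 and 23.98 CPM with it. Thus 3 of these 4 genes were unread in all 6 libraries without the element and read in each library with it. Of 21 monocyte and macrophage markers that passed the filter 1 rose and 7 fell (median log2 change -2.71), and 3 of the 7 had all 6 values lower. Apoe, a lipid carrier of macrophages, had 31.2, 52.2 and 99.8 CPM without the element and 235, 335 and 746 CPM with it, 6.54-fold lower (edgeR adjusted p = 0.000618). Without Pu.1-URE-/- 1 the list held 2 falls, and the rise, that of Ly6c2, was lost without any of 6 libraries left out singly, Pu.1-URE-/- 1 among them. The list's summed level overlapped between the sides (499 to 988 CPM without the element, 506 to 1265 CPM with it).

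Genes listed as dependent on PU.1 moved both ways. Of 48 tested 13 rose and 9 fell, 10 had all 6 values higher and 8 all 6 lower, and the median log2 change was -0.02. The rises included Elane, Ncf1 and Gfi1, described above. Among the falls, Rnase6, an antimicrobial ribonuclease, had 0.317, 1.399 and 3.29 CPM without the element and 26.6, 38.8 and 60.6 CPM with it, 26.1-fold lower (edgeR adjusted p = 0.000452). Btk, the kinase of B-cell and myeloid receptor signalling, had 1.93, 3.97 and 10.6 CPM without the element and 30.8, 47.4 and 77.0 CPM with it, 10.4-fold lower (adjusted p = 0.000817). Lst1, a membrane protein of leukocytes, was 19.6-fold lower (adjusted p = 0.000341). Ptprc, which encodes the pan-leukocyte antigen CD45, had 40.5, 45.9 and 58.6 CPM without the element and 117, 141 and 226 CPM with it, 3.39-fold lower (adjusted p = 0.000175). In each of these 4 genes the sides stood clear of each other. Without the 3 libraries with high Y-linked reads 6 of the list rose and 6 fell.

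The other leading falls belong to no single group. Nckap1l, a subunit of the actin-regulating WAVE complex in blood cells, had 0, 2.05 and 7.04 CPM without the element and 67.1, 75.9 and 96.2 CPM with it, 32.9-fold lower (edgeR adjusted p = 0.0024). Ebi3, a subunit of the cytokines IL-27 and IL-35, was 34.3-fold lower (0.0613, 1.61 and 2.09 CPM, against 21.1, 43.8 and 69.4 CPM; adjusted p = 0.00134). Serpinf1, a secreted serpin that limits vessel growth, was 23.3-fold lower (1.95, 3.23 and 7.27 CPM, against 63.1, 72.6 and 141 CPM; adjusted p = 3.08e-05). None of these values overlapped. The inhibitory receptor gene Cd300a was 45.0-fold lower (adjusted p = 0.000961), and the growth factor gene Gdf3 69.4-fold lower (adjusted p = 0.000817). Capg, an actin-capping protein, had 18.3, 28.4 and 46.1 CPM without the element and 167, 185 and 205 CPM with it, a tight pair of groups (6.11-fold lower, adjusted p = 3.47e-05). Plxnc1, a semaphorin receptor, was 6.21-fold lower (adjusted p = 0.000265), Sox6, a transcription factor of red cell development, 20.8-fold (adjusted p = 0.0119), Mob3b, a kinase-adaptor family gene, 7.68-fold (adjusted p = 0.00608) and Guca1a, known as a guanylate cyclase activator of the retina, 18.2-fold (adjusted p = 0.00803).

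**Figure D2:**
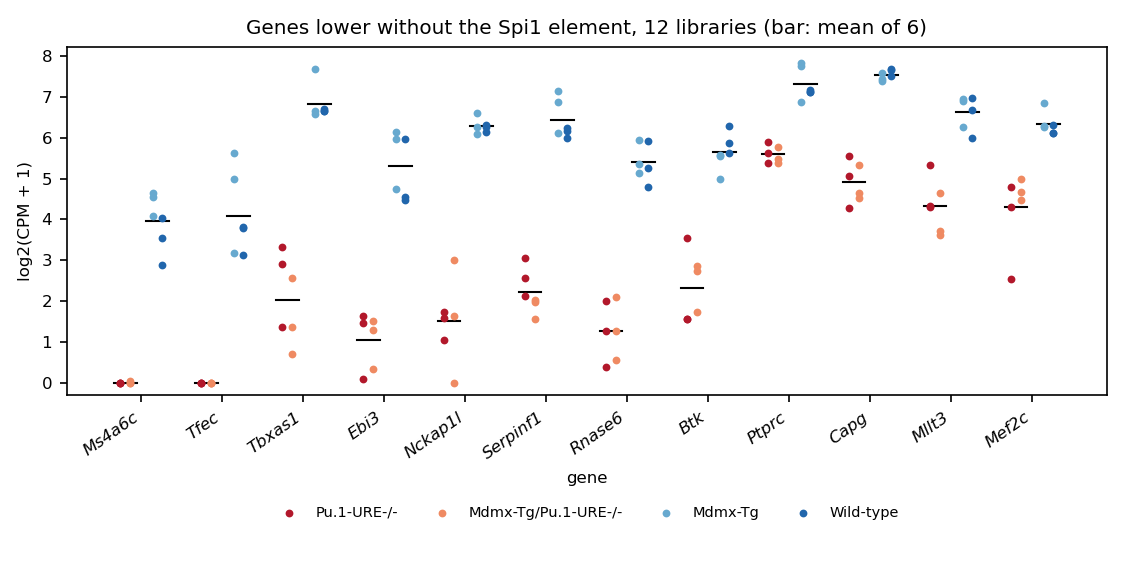
Levels of 12 genes lower without the Spi1 element, as log2(CPM + 1) on the vertical axis for each of the 12 libraries. Points are libraries coloured by genotype, with the 6 libraries without the element left of the 6 with it at each gene, and the bar is the mean of 6. Ms4a6c and Tfec lie at or next to 0 without the element, and at Ptprc, Capg, Mllt3 and Mef2c all 12 libraries hold reads but do not overlap between the sides.

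Stem cell genes were called more often lower than higher without the element. Of 29 stem cell transcription factors 10 fell and 0 rose (median log2 change -0.8), and 6 had all 6 values lower. Mllt3, a maintenance factor of stem cells, had 11.3, 18.8 and 39.0 CPM without the element and 62.4, 109.8 and 124 CPM with it, 5.01-fold lower (edgeR adjusted p = 0.000671). Mef2c, a factor of lymphoid and stem cells, was 3.88-fold lower (adjusted p = 0.00266) and Mecom, the EVI1 gene, 3.04-fold (adjusted p = 0.0128). For Mecom the sides nearly met, with 19.7 CPM the highest value without the element and 20.9 CPM the lowest with it. Gata2, a stem and mast cell factor, was 2.89-fold lower with overlap (adjusted p = 0.0213). Without Wild-type 2 the falls in this list numbered 5.

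Of 31 stem cell surface and quiescence genes 10 fell and 2 rose (median log2 change -0.57). The rises were a share near the 7.85% of all genes tested that rose, while 3.79% of all genes fell. Slamf1, which encodes the stem cell marker CD150, had 0.966, 6.09 and 9.84 CPM without the element and 19.4, 26.4 and 58.2 CPM with it, 5.90-fold lower (edgeR adjusted p = 0.0117). Ndn, the growth suppressor necdin, was 4.82-fold lower (adjusted p = 0.0157), and Socs2, a feedback inhibitor of cytokine signals outside the list, 14.3-fold lower (0.872, 1.71 and 9.01 CPM, against 16.4, 41.3 and 74.0 CPM; adjusted p = 0.00275). Cd9, a tetraspanin, was 3.16-fold higher (288, 421 and 772 CPM, against 95.5, 130.0 and 225 CPM; adjusted p = 0.00446). These 4 genes did not overlap. Without Pu.1-URE-/- 1 the falls in the list numbered 3, and with the Jchain covariate 1. Without the 3 libraries with high Y-linked reads the counts of falls in the lists of stem cell transcription factors and surface genes were 2 and 0.

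Genes of the megakaryocyte and red cell lines had mostly negative changes. Of 20 megakaryocyte genes 3 fell, 0 rose and 13 had a log2 change below 0 (median -0.44), where 3.79% of all genes tested were called lower. No call was left with the Jchain covariate, without the 3 libraries with high Y-linked reads, or without Wild-type 3, Pu.1-URE-/- 1, Mdmx-Tg/Pu.1-URE-/- 1 or Mdmx-Tg/Pu.1-URE-/- 3. Of 24 erythroid genes 1 fell, a share near that of all genes, namely Alad, an enzyme of haem synthesis (1.90-fold lower, edgeR adjusted p = 0.0206), while 22 had a log2 change below 0 (median -0.99). Leaving out Mdmx-Tg/Pu.1-URE-/- 2 brought 11 erythroid genes below the threshold, and leaving out Pu.1-URE-/- 1 left none. Gata1, the leading red cell factor, had 6.15, 57.6 and 90.8 CPM without the element and 50.8, 148 and 216 CPM with it and was not called (adjusted p = 0.0887), but it was without Mdmx-Tg/Pu.1-URE-/- 2 (adjusted p = 0.0116).

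Genes of cell division had mostly positive and genes of ribosome production mostly negative changes. All 30 genes of the G2 and M phases had a log2 change above 0 (median 0.72), 13 rose and 5 did so without overlap. Cdk1, the kinase that drives entry into mitosis, had 239.8, 312 and 401 CPM without the element and 104, 151 and 193 CPM with it, a 2.11-fold rise (edgeR adjusted p = 0.00222). The spindle motor gene Kif11 rose 2.14-fold (adjusted p = 0.00337). Of 30 S phase genes 4 rose (median 0.18), led by Rrm2, a subunit of ribonucleotide reductase (2.41-fold, adjusted p = 0.00312). Over all genes tested 7.85% rose and 3.79% fell. Without Pu.1-URE-/- 3 the counts were 3 for G2 and M and 1 for S phase, without Wild-type 3 the S phase count was also 1, and without the 3 libraries with high Y-linked reads both were 0. Of 32 MYC and ribosome biogenesis genes 8 fell, 0 rose and 31 had a log2 change below 0 (median -0.5). Wdr75, a factor of ribosomal RNA synthesis, had 48.3, 52.2 and 61.5 CPM without the element and 72.9, 94.5 and 118 CPM with it, 1.77-fold lower (adjusted p = 0.00496). Without Wild-type 2 or Pu.1-URE-/- 1 just 1 gene of this list was called.

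Glycolysis genes rose in part. Of 26 measured genes 8 rose and 1 fell (median log2 change 0.41), and 8 had all 6 values higher and 1 all 6 lower. Gpi1, glucose phosphate isomerase, had 510.3, 716 and 1370.3 CPM without the element and 183, 201 and 236 CPM with it, a 3.98-fold rise (edgeR adjusted p = 0.000245). Pkm, the pyruvate kinase, rose 2.52-fold (adjusted p = 0.0041), and the lactate exporter gene Slc16a3 stood at 2.10, 16.4 and 38.2 CPM without the element and 0.0192, 0.714 and 1.39 CPM with it (log2 change 4.47 ± 0.92, adjusted p = 0.00928). Eno1, enolase, rose 3.44-fold, with Mdmx-Tg/Pu.1-URE-/- 3 inside the range of the libraries with the element (adjusted p = 0.00227). Ldhb, a lactate dehydrogenase chain, was 3.81-fold lower (15.1, 40.0 and 49.3 CPM, against 101, 114 and 219.9 CPM; adjusted p = 0.00114). Without the 3 libraries with high Y-linked reads 2 of the list rose and 1 fell.

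Called genes of the interferon response and of antigen presentation were lower. Of 44 interferon response genes 11 fell and 0 rose (median log2 change -0.68), and 7 had all 6 values lower. Oas1a, a sensor of double-stranded RNA, had 6.54, 8.74 and 10.2 CPM without the element and 20.7, 47.6 and 64.8 CPM with it, 5.09-fold lower (edgeR adjusted p = 0.000239). Gbp7, a guanylate-binding protein, was 2.21-fold lower (adjusted p = 0.00131). Members of these families share sequence, so reads may be split between near copies. Without the 3 libraries with high Y-linked reads 4 of the list fell. In the MHC class II pathway 4 of 11 fell (median -0.86), among them H2-Eb1, a class II chain (5.52, 9.09 and 15.5 CPM without the element, 17.1, 47.9 and 90.8 CPM with it; adjusted p = 0.00368), and Cd74, the invariant chain, whose values overlapped (adjusted p = 0.0122). Without Pu.1-URE-/- 1 the class II count was 2, and with the Jchain covariate it was 0. Of 17 mature B and plasma cell markers 2 fell and 16 had a log2 change below 0 (median -2.45), where 3.79% of all genes tested were called lower. The falls numbered 1 without any of 9 libraries left out singly and 7 without Wild-type 3, and 0 with the Jchain covariate, without 3 libraries doubted in earlier work (Mdmx-Tg/Pu.1-URE-/- 3, Mdmx-Tg 2 and Wild-type 1) or without the 3 with high Y-linked reads. DESeq2 called 10. Cd79b, a chain of the B cell receptor, had 10.3, 22.3 and 29.6 CPM without the element and 36.5, 52.7 and 95.9 CPM with it (adjusted p = 0.0079). The summed level of the B and plasma cell list was 1656 to 33111 CPM without the element and 3152 to 277281 CPM with it. Their part in the falls of class II genes was not tested.

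Lymphoid genes showed no single direction. Of 22 lymphoid priming genes 5 rose and 3 fell (median log2 change 0.21). For this and the next lists, 7.85% of all genes tested rose and 3.79% fell. Notch1, the receptor that starts T cell fate, had 22.0, 25.6 and 35.5 CPM without the element and 3.61, 8.44 and 9.77 CPM with it, a 3.603-fold rise (edgeR adjusted p = 0.00136), and Ccr9, a homing receptor of thymus-seeding cells, rose 15.6-fold (adjusted p = 0.00451). Bcl11a, a factor of B cell fate, was 2.09-fold lower without overlap (adjusted p = 0.00271). Without Pu.1-URE-/- 3 or Mdmx-Tg/Pu.1-URE-/- 1 the rises numbered 2. Of 14 T and NK cell markers 2 rose and 1 fell (median 1.14). Nkg7, a granule protein of NK cells that granulocyte precursors also express, had 1536, 2943 and 3942 CPM without the element and 92.4, 198 and 311 CPM with it, a 14.9-fold rise (adjusted p = 6.00e-05), and it made up most of that list's summed level. Of 16 mast cell and basophil genes 3 rose and 2 fell (median 0.02). The basophil protease gene Mcpt8 rose 10.6-fold (168, 281 and 376 CPM, against 11.5, 25.8 and 44.4 CPM; adjusted p = 8.96e-05), while Fcer1a, the IgE-binding chain, was 5.64-fold lower with overlap (adjusted p = 0.0172).

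Of 41 genes of the p53 response, the pathway that MDMX restrains, 3 rose and 0 fell (median log2 change 0.15), a share near the 7.85% of all genes tested that rose. With the Jchain covariate or without the 3 libraries with high Y-linked reads 1 rose. Xpc, a sensor of DNA damage, had 162, 284 and 495 CPM without the element and 20.6, 26.3 and 33.9 CPM with it, an 11.5-fold rise (edgeR adjusted p = 9.60e-06). Apaf1, the core of the apoptosome, rose 2.32-fold with overlap (adjusted p = 0.00604). Mdm2, a direct p53 target, was not called (57.8 ± 13.3 CPM without the element and 41.8 ± 7.34 CPM with it, SD, n = 6 each, adjusted p = 0.123). Of 18 targets of Wnt and beta-catenin 4 rose and 0 fell (median -0.17), with 1 left without Pu.1-URE-/- 3 and 0 with the Jchain covariate or without the 3 libraries with high Y-linked reads. Of 38 leukaemia-associated genes 6 rose and 6 fell (median 0.09). Cd96, a surface marker of leukaemic stem cells, rose 3.89-fold with overlap (adjusted p = 0.00443), and Bex3 was 1.88-fold lower without overlap (adjusted p = 0.0024). Of 18 cholesterol synthesis genes 2 fell, Sqle, squalene epoxidase, among them (1.75-fold lower, adjusted p = 0.0144), where 3.79% of all genes tested fell.

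Some settings moved the counts of many lists at once. With the Jchain covariate the azurophil set kept 11 rises and the specific and gelatinase set 24, and without the 3 libraries with high Y-linked reads they kept 11 and 23. With that covariate no call was left among the class II, megakaryocyte, erythroid and S phase genes, 1 rise among the G2 and M genes, 1 fall among the MYC and ribosome biogenesis genes, and 3 falls each among the stem cell transcription factors and the monocyte and macrophage markers. Without those 3 libraries no call was left among the class II, erythroid, MYC and ribosome biogenesis and cholesterol synthesis genes, and 2 falls were left among the monocyte and macrophage markers. There 1 rise was left among the lymphoid priming genes, 1 rise and 1 fall among the eicosanoid enzymes, and 2 rises and 0 falls among the leukaemia-associated genes. DESeq2 called more falls, with 16 of the stem cell transcription factors, 16 of the MYC and ribosome biogenesis genes, 20 of the interferon response genes and 9 of the erythroid genes.

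**Figure D3:**
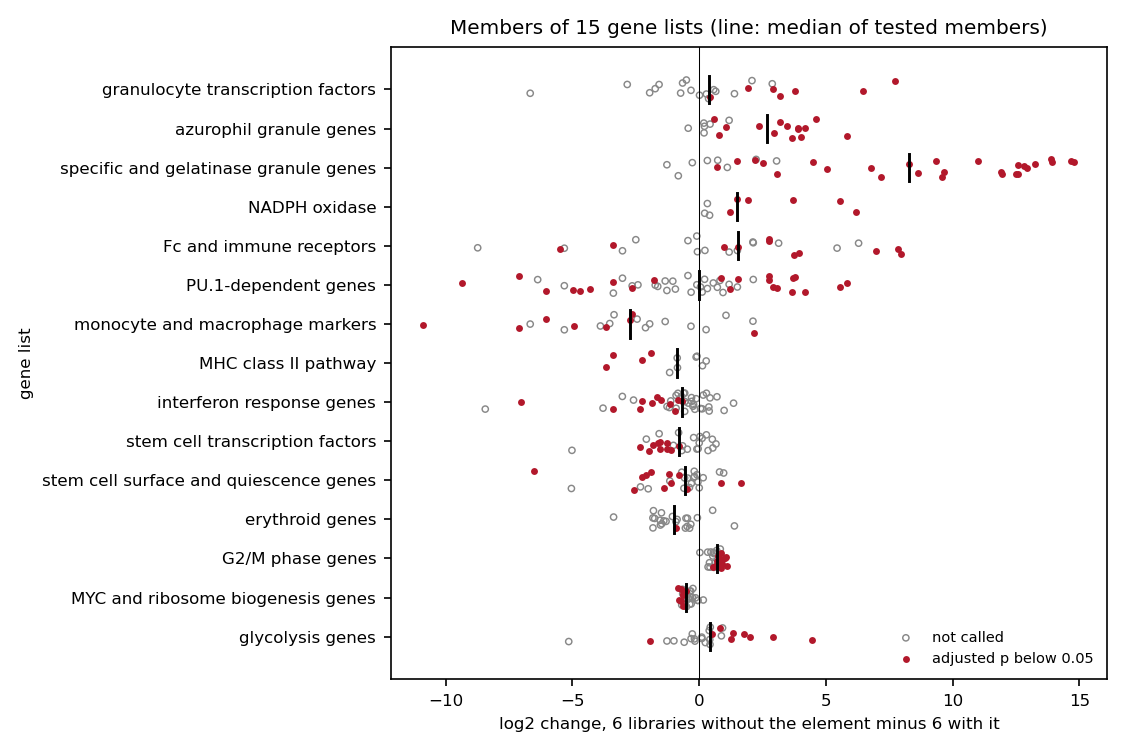
Log2 changes (6 libraries without the element minus 6 with it, horizontal axis) of the members of 15 gene lists, with filled red points for genes at an adjusted p below 0.05, open points for others and a line at the median of each list. The medians of the specific and gelatinase granule genes (8.28) and the azurophil granule genes (2.66) lie furthest above 0, and that of the monocyte and macrophage markers (-2.71) furthest below.

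Loss of the element could be compared within each transgene state, since those comparisons share no library. Pu.1-URE-/- against Wild-type gave 577 rises and 130 falls, 707 of 15012 genes (4.71%). Mdmx-Tg/Pu.1-URE-/- against Mdmx-Tg gave 251 rises and 97 falls, 348 genes (2.32%). Both held 243 genes, 34.4% of the 707 and 69.8% of the 348, all with the same direction. Of the 707 genes 690 (97.6%) had the same sign in the comparison with the transgene, and of the 348 genes 344 (98.9%) in the one without it, against 67.7% of all genes. The estimate of the spread is common to both. Of the 577 genes that rose in Pu.1-URE-/-, 464 (80.4%) had all 3 Mdmx-Tg/Pu.1-URE-/- values above all 3 Mdmx-Tg values, against 11.9% of all genes, and of the 130 that fell 99 (76.2%) had all 3 below, against 7.25% of all genes. The log2 changes without and with the transgene lay close together for Camp (14.60 and 14.71), Clec12a (3.73 and 3.73) and Capg (-2.60 and -2.62).

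Some changes were larger in 1 transgene state, but none passed the test of the difference. The interaction of element and transgene gave 0 called genes in edgeR, with 871 genes (5.8%) at an unadjusted p below 0.05. Among the 734 genes with all 6 values higher the median log2 change was 2.5 in Pu.1-URE-/- against Wild-type and 1.81 in Mdmx-Tg/Pu.1-URE-/- against Mdmx-Tg, and 520 were larger without the transgene. Among the 284 lower genes the medians were -1.64 and -1.75, and 139 were larger without the transgene. Over all 1018 the share larger without the transgene was 64.7%, and over all genes tested 53.2%. Cebpa had log2 changes of 4.48 without and 1.38 with the transgene (edgeR interaction, adjusted p = 0.68). It stood at 23.8 to 41.1 CPM in Pu.1-URE-/- and 12.4 to 29.9 CPM in Mdmx-Tg/Pu.1-URE-/-, against 6.30 to 9.05 CPM in Mdmx-Tg and 1.19 to 2.17 CPM in Wild-type. Cd9 gave 2.35 and 0.98, Fcer1g 3.52 and 1.99 (edgeR adjusted p = 0.826 for both) and Gdf3 -4.39 and -8.24 (adjusted p = 0.767). These genes were picked after their values were seen.

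**Figure D4:**
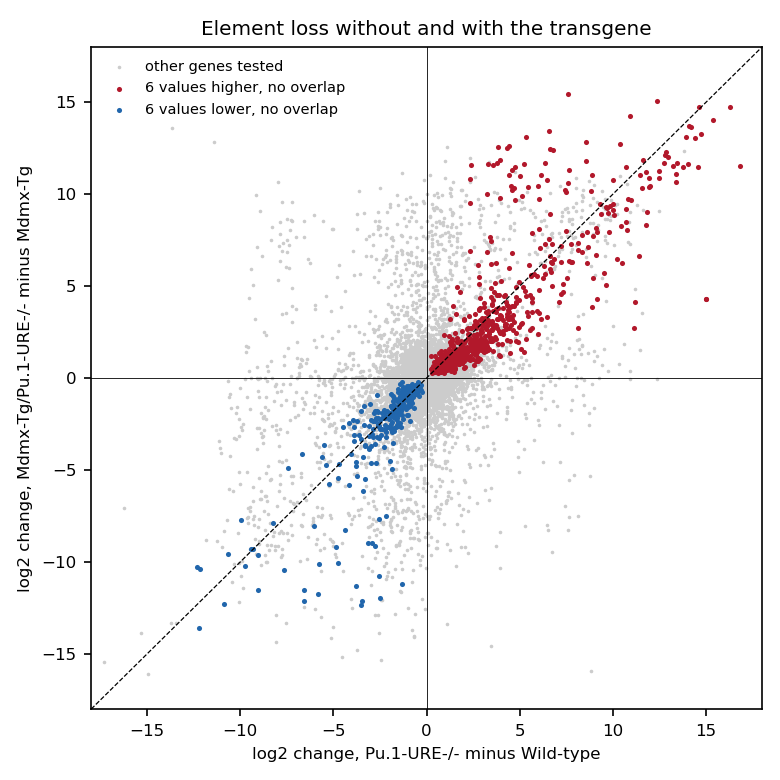
Log2 change for loss of the element in Pu.1-URE-/- against Wild-type (horizontal axis) and in Mdmx-Tg/Pu.1-URE-/- against Mdmx-Tg (vertical axis), 1 point per gene tested. Genes with all 6 values higher (734) or lower (284) are coloured, other genes are grey, and the dashed line marks equal change. The coloured genes spread along the line on both sides of 0.

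The libraries were also grouped by their label numbers into 3 runs, a grouping that the labels do not give, and whether the runs are batches is not stated. The runs held 2 libraries without the element each and 2, 1 and 3 libraries with it, the lone one being Mdmx-Tg 2. Within them the difference in mean log2 CPM was 16.46, 14.63 and 13.50 for Camp, 6.66, 6.58 and 4.34 for Elane, -7.10, -3.69 and -5.13 for Tbxas1 and -3.001, -2.17 and -2.25 for Mllt3. Among the 9 libraries with low Y-linked reads the difference was 14.997 for Camp, 5.92 for Elane, -4.61 for Tbxas1 and -2.15 for Mllt3. Since the sides of these 4 genes do not overlap, no subset of the libraries can turn their direction, and these values describe its size alone. As a block in the fit, the runs left 1106 rises and 515 falls.

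Since the deleted element lies next to Spi1, the genes around it were examined. Of 33 tested genes within 1 Mb of Spi1 3 were called (9.09%), of 38 genes at 1 to 5 Mb 5 (13.2%), of 122 at 5 to 20 Mb 9 (7.38%) and of 994 further along chromosome 2 99 (9.96%). On other chromosomes 1631 of 13824 genes were called (11.8%). These shares were not tested. Rapsn (GRCm38 chromosome 2, 91035620 to 91045729), which lies 46.8 kb before Spi1 and encodes rapsyn of the nerve-muscle junction, had 13.8, 25.7 and 29.7 CPM without the element and 0, 1.99 and 5.61 CPM with it, an 11.9-fold rise (edgeR adjusted p = 0.0198). Lrp4 (91457511 to 91513779), a receptor at the same junction, had 13.9, 28.4 and 51.0 CPM without the element and 0, 0.784 and 3.05 CPM with it (log2 change 5.17 ± 0.99, adjusted p = 0.00607). Neither gene overlapped between the sides. Slc35c1, a GDP-fucose transporter, rose 4.36-fold with overlap (adjusted p = 0.00498). Arhgap1, Phf21a and Ext2 rose 1.62-fold to 1.95-fold with overlap, and their calls were near the threshold (adjusted p = 0.0493, 0.0401 and 0.0329). Each lost its call without 9 to 11 of the 12 libraries left out singly, with adjusted p up to 0.191, 0.134 and 0.12 without Mdmx-Tg/Pu.1-URE-/- 1. The olfactory receptor genes Olfr1173 (4.75-fold higher, adjusted p = 0.0159, or 0.061 without Pu.1-URE-/- 3) and Olfr1245 (2 reads in all without the element and 84 with it) belong to a large family of near copies, and their values are uncertain.

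**Figure D5:**
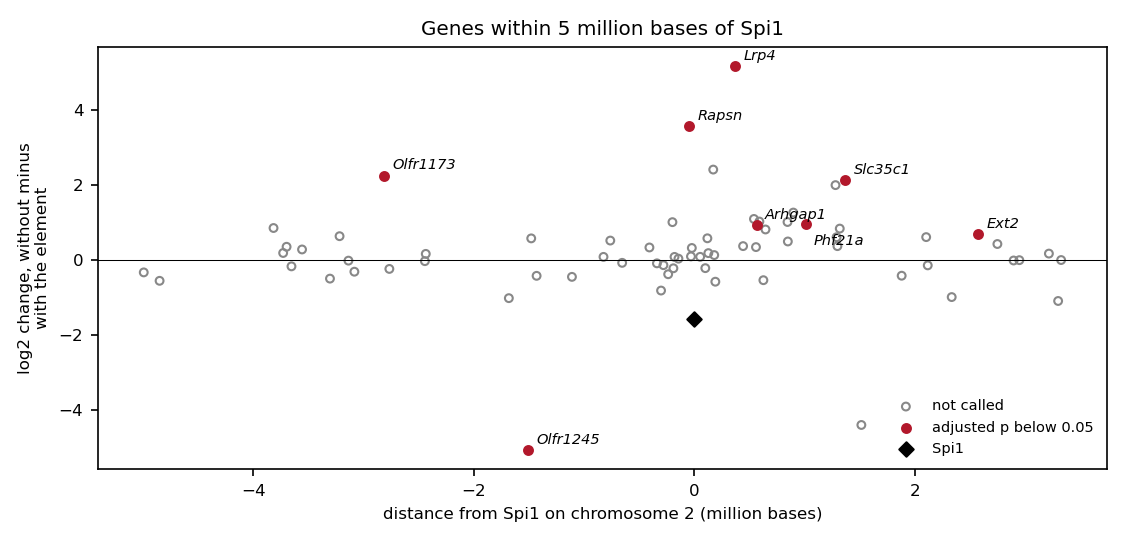
Log2 change (6 libraries without the element minus 6 with it, vertical axis) of genes within 5 Mb of Spi1 on chromosome 2 (distance on the horizontal axis). Filled points are the 8 genes at an adjusted p below 0.05, open points are other genes and the diamond is Spi1. Rapsn (3.58) and Lrp4 (5.17) are the highest of the called genes and lie on either side of Spi1.

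The rule of non-overlap has a sharp edge. Just inside it, Sco1 had 40.3 as its lowest CPM without the element and 40.3 as its highest with it, which differed beyond the digits given here, and Pbxip1 (47.8 and 47.7 CPM) and Prc1 (135 and 135 CPM) were as close. Just outside, Pkp3 had 14.04 and 14.06 CPM at its nearest libraries. Cct8 had 517 as its highest without the element and 516 as its lowest with it, and Jade3 13.7 and 13.6. A further 522 genes were called higher and 343 lower although their values overlapped.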

How the data were processed

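PolyA RNA of 12 sorted bone marrow libraries, 3 for each of 4 genotypes, was analysed from the deposited tables. The submitters' processing notes list FastQC, Salmon, DESeq2 and the builds GRCm38 and mm10, and the versions of the tools are not given in the sources used here. Per the file headers the deposited values are estimated counts per transcript and TPM. Of the estimated counts that the authors deposited, 35.3% were not whole. TPM, also deposited by the authors, was read for transcripts of Spi1 and Mdm4 alone, and the transcript values given here are estimated reads.

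Of 116248 transcripts 115995 (99.8%) matched GENCODE M21 and were summed to genes and rounded. The 253 others, with 0.0379% to 0.0841% of reads, were left out. Of 20645 genes with a read 15012 passed the filter of edgeR (minimum count 10, minimum total 15) and were scaled by TMM. The quasi-likelihood test of edgeR 4.0.16 (R 4.3.3) used loss of the element and the transgene as terms, with 9 residual degrees of freedom and Benjamini-Hochberg adjustment over all 15012 genes at 0.05. Comparisons within a transgene state and the interaction came from a fit with 1 mean per genotype. The scripts were tested on simulated data. DESeq2 1.42.0, limma 3.58.1 and 29 alternative settings in all were tried, 1 of them (leaving out the 3 libraries with high Y-linked reads) chosen after seeing the data.

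Each library held 47231505 to 55030224 reads summed to genes, and a gene without reads on 1 side was set at a floor of 3 reads over the 6 libraries, which covers counting error only. The members and the 32 gene lists were chosen with earlier results of these data known. Named genes were the 15 with the widest gap and the 10 with the largest fold in each direction, the 5 most abundant in each direction, up to 4 of each list by p, called genes within 5 Mb of Spi1, those next to the edge of the non-overlap rule and the label checks. Arhgdib, Cd180, Cd86, Cd96, Clu, Csf1r, Cxcr2, Cybb, Gata1, Gata2, Hp, Hvcn1, Id1, Irf5, Irf8, Ltf, Ly6c2, Mdm2, Ms4a3, Prtn3, Slc16a3, Socs2, Tfec and Tmsb4x were chosen after their values were seen. Values of paralogs (the Oas1, Gbp and olfactory receptor families and ribosomal proteins) are uncertain. One glycolysis symbol has more than 1 gene ID, so 26 genes were measured for 25 listed. Some listed genes that count in the totals are not reported here by name.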

Additional observations from a re-analysis of the deposited data

Results flagged for a closer look

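Of 262 groups of 6 libraries examined (131 genes on either side), 22 held a library whose gap to the nearest other exceeded 0.625 of the range on the scale of log2(CPM + 1). Chance flags about 1 in 20 groups. No library was flagged more than 4 times.

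Among the libraries without the element, Pu.1-URE-/- 1 stood lowest for Ccr9 (8.38 CPM), Flt3 (10.8 CPM) and Mef2c (4.83 CPM) and highest for Ltf (30.0 CPM). Mdmx-Tg/Pu.1-URE-/- 3 stood highest for Fcer1a (9.87 CPM), Sco1 (77.9 CPM) and Ms4a6c (0.0396 CPM) and lowest for Sqle (17.3 CPM). Mdmx-Tg/Pu.1-URE-/- 1 stood highest for Pdgfrb (34.8 CPM) and Olfr1245 (0.0402 CPM), and Mdmx-Tg/Pu.1-URE-/- 2 lowest for Rapsn (13.8 CPM).

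Among the libraries with the element, Mdmx-Tg 1 stood highest for Tbxas1 (203 CPM) and Mef2c (115 CPM), Mdmx-Tg 2 for Gfi1 (7.57 CPM) and Retnlg (0.0196 CPM), and Mdmx-Tg 3 for Cd177 (0.287 CPM). Wild-type 1 stood highest for Lcn2 (0.271 CPM) and Ltf (0.203 CPM) and lowest for Olfr1245 (0.0903 CPM). Wild-type 2 stood highest for Orm1 (0.0726 CPM), and Wild-type 3 for Cxcr2 (13.2 CPM) and Id1 (2.36 CPM). Values below 1 CPM rest on a few reads.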

How the results depend on the processing

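Of the 120 called genes given in the text 63 kept their call and direction under all 29 settings and 108 under each library left out singly. Cd180, Csf1r and Olfr1245 had no value under the filter of more than 1 CPM in 6 libraries and Cd177 no adjusted p in DESeq2, and these 4 are not among the 63. The counts of rises and falls (1178 and 569) stood at 362 and 124 with Jchain as a covariate, at 270 and 81 without the 3 libraries with high Y-linked reads and at 716 and 278 without 3 libraries doubted in earlier work (Mdmx-Tg/Pu.1-URE-/- 3, Mdmx-Tg 2 and Wild-type 1). Of the 120 genes 39 lost their call with the Jchain covariate and 55 without the libraries with Y-linked reads. That last fit has fewer samples, and Mdmx-Tg/Pu.1-URE-/- keeps replicate 2 alone in it. DESeq2 called 1550 and 1278, so that 54.8% of calls were rises, against 67.4% in edgeR, and limma-voom 1407 and 700. The other settings that kept all libraries gave 1007 to 1213 rises and 406 to 681 falls. The median of all genes moved by less than 0.1 log2 in every setting.

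Pu.1-URE-/- against Wild-type (707) gave 1837 genes in DESeq2, 257 with the runs of label numbers as a block, 374 with Jchain and 178 without the Y-linked libraries. Mdmx-Tg/Pu.1-URE-/- against Mdmx-Tg (348) gave 1273, 156, 90 and 28 in the same order, 95 with Y-linked reads as a covariate and 111 without the 3 doubted libraries. Non-overlapping genes, which need fewer values to hold when libraries are left out, numbered 1206 higher and 725 lower without the doubted libraries, and 602 lower without the Y-linked ones. The causes of the other differences were not tested.

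With single libraries left out, rises ranged from 661 (without Pu.1-URE-/- 3) to 1147, with 754 without Wild-type 3 and 696 without Mdmx-Tg/Pu.1-URE-/- 1. Falls ranged from 280 (Pu.1-URE-/- 1) to 637, with 320, 331 and 343 when Wild-type 2, Pu.1-URE-/- 3 or Mdmx-Tg/Pu.1-URE-/- 1 was left out. Pu.1-URE-/- against Wild-type ranged from 299 (Wild-type 2) to 789, with 303, 317 and 394 without Pu.1-URE-/- 3, Pu.1-URE-/- 1 and Wild-type 3. Mdmx-Tg/Pu.1-URE-/- against Mdmx-Tg ranged from 136 (Mdmx-Tg/Pu.1-URE-/- 1) to 347, with 164, 181, 202 and 213 without Mdmx-Tg 1, Mdmx-Tg/Pu.1-URE-/- 3, Mdmx-Tg 2 and Pu.1-URE-/- 3. Non-overlapping genes ranged from 673 to 942 higher and 301 to 465 lower, with 440, 452 and 465 lower when Wild-type 3, Mdmx-Tg/Pu.1-URE-/- 2 or Mdmx-Tg 1 was left out.

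Direction changed in 3 genes that were not called. Ly6a stood at 0.15 in limma-voom, 0.01 with the Y-linked covariate, 0.80 with Jchain, 0.56 without the doubted libraries and 0.05, 0.00 and 0.31 when Mdmx-Tg 2, Mdmx-Tg/Pu.1-URE-/- 2 and Wild-type 1 were left out. Mdm4 stood at 0.09 without the doubted libraries and 0.04 without Mdmx-Tg 1 or Mdmx-Tg/Pu.1-URE-/- 2, and Cybb at -0.04 without Wild-type 3. With single libraries left out the values ranged from -0.36 to 0.31 for Ly6a, -0.37 to 0.04 for Mdm4 and -0.04 to 0.72 for Cybb. The causes were not tested.

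With the replicate number as a block there were 1085 rises and 541 falls, and 3 of the 120 genes lost their call. The numbers do not pair the libraries: over 18 same-numbered pairs the deviations correlated at -0.153 to 0.0856, and 4 of 12 libraries were closest to their own number.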
